A study of Caenorhabditis elegans with 2 samples.

Results

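The pooled ZK546.5 peak list on the ce11 genome build held 30000 peaks, and 4709 of them lay on the X chromosome. These 4709 were taken by their chromosome alone. Of them, 49 also stood, with the same coordinates, in the thresholded list that was derived from the replicate lists by the irreproducible discovery rate (IDR), and the other 4660 did not; they are called thresholded and sub-threshold X peaks here. The whole thresholded list held 491 peaks, and these were the 491 strongest of the pooled list by signal. The data came from chromatin immunoprecipitation followed by sequencing (ChIP-seq) on whole Caenorhabditis elegans of the L2 larval stage, in 1 group of 2 biological replicates. The strain was OP231, with genotype unc-119(ed3) III; wgIs231, in which the insertion wgIs231 expresses ZK546.5 with GFP-FLAG fused to its C terminus. Worms were a mixed-sex pool of unknown age, and chromatin was fragmented by sonication. No group without the tagged protein was analysed here, and the authors' control library was not analysed either. Cell types of the worm are pooled in these values, so fewer cells with a bound site and less binding per cell cannot be told apart. Each peak carries the authors' own signal value, which ranks peaks within its list; the 3 lists (pooled, replicate 1 and replicate 2) are not on a shared scale.

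Sex in C. elegans follows from the number of X chromosomes: hermaphrodites carry a pair and males a single X. In hermaphrodites a dosage compensation complex related to condensin binds both X chromosomes and lowers their transcription. It is loaded at recruitment sites on X (rex sites), where a motif enriched on X (MEX) is clustered, and spreads from there to promoters. The X chromosome is also known to be poor in genes for general and germline functions. Where recruitment sites lie was not among the files used here, so no peak below is called one.

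The sequences on which the account of the X peaks turns are shown first. Each is 40 bases of ce11 around a match to GCGCAGGG, the 8-letter core of the MEX motif, in capitals, at the 7 strongest X peaks that held one within 50 bp of the summit. They are written 5′ to 3′ on the strand of the match.
X peak 2, chrX:11094210-11094249, minus strand: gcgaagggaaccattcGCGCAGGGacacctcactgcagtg
X peak 4, chrX:6296560-6296599, plus strand: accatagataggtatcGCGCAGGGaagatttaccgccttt
X peak 5, chrX:14525884-14525923, minus strand: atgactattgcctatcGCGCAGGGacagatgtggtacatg
X peak 7, chrX:4209250-4209289, minus strand: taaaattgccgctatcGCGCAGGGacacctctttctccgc
X peak 10, chrX:2997107-2997146, minus strand: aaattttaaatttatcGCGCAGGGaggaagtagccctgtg
X peak 15, chrX:8036419-8036458, plus strand: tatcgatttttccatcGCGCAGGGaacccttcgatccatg
X peak 19, chrX:806658-806697, plus strand: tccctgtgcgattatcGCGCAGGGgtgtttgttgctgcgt
Peaks are numbered by signal among the 49. Among the 17 matches within 150 bp of a thresholded X summit, the base before the core was C in 13, the base before that was T in 14, and the base after the core was A in 13.

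A second word recurred in the same peaks, again shown in capitals with its flanks. It is GCGAAGGG, which is the MEX core with the change C4A, positions being counted from 1 at the 5′ end of the core.
X peak 6, chrX:9465867-9465906, plus strand: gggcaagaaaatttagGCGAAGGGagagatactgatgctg
X peak 9, chrX:13700888-13700927, minus strand: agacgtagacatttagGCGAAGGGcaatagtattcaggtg
X peak 10, chrX:2997056-2997095, minus strand: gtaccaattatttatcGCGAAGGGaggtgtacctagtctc
X peak 11, chrX:1627090-1627129, plus strand: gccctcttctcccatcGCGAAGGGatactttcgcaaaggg
Peaks 6, 9 and 11 held no exact core within 150 bp of the summit, and peak 10 held both words.

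For contrast, 3 summits upstream of coding genes on X are given with 50 bases on each side, on the strand of the gene. Capitals mark, on either strand, the 5 words of 6 letters that most set thresholded promoter summits of the autosomes apart. Their letters and shares are given with the other words at the end. Each of the 3 summits holds such a word, but those of klp-13, nspc-17 and ins-39 hold none. The 3 therefore do not stand for all promoter summits of X.
rpl-11.2, chrX:2242940-2243040, minus strand: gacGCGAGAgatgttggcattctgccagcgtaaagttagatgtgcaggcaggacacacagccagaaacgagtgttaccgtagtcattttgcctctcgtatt
puf-9, chrX:5841244-5841344, plus strand: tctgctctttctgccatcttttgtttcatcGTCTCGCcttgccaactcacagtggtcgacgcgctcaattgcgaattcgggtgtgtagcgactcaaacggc
vha-15, chrX:2237579-2237679, plus strand: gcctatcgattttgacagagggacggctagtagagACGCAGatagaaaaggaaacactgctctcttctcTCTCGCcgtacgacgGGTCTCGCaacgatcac

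Pooled peaks were somewhat sparser on X than on the autosomes as a whole, and fewer of them were thresholded. X carried 15.7% of pooled peaks and 17.7% of nuclear bases, with 266 pooled peaks per Mb against 306 per Mb on chromosomes I to V and 256 per Mb on chromosome V alone. The thresholded list held 49 X peaks, or 9.98% of the list. Thus 1.04% of X peaks were thresholded (exact 95% interval 0.771 to 1.37, counting error only), against 1.64% of pooled peaks on all chromosomes and 1.67% of those on chromosomes I to V (421 of 25270). The share on single autosomes ran from 0.84% on chromosome V (45 of 5357) to 2.37% on chromosome I (119 of 5022), so X stood within the range of the autosomes, above chromosome V. Density showed the same order, with 2.77 thresholded peaks per Mb on X, 2.15 per Mb on chromosome V and 7.90 per Mb on chromosome I. Sub-threshold peaks had nearly the same median signal on X (15.8) as on chromosomes I to V (15.96). With 1 group of 2 replicates no test over samples can be made, and neighbouring peaks are not independent, so all comparisons between chromosomes here are descriptions.

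The X summits were less often in promoters than those of the autosomes. The promoter window reached 1000 bp upstream and 200 bp downstream from the 5′ end of every annotated transcript. It held 29 of the 49 thresholded X summits (59.2%, exact 95% interval 44.2 to 73.0) and 378 of 421 on chromosomes I to V (89.8%, 86.5 to 92.5). The shares of the single autosomes ran from 81.4% on chromosome III to 97.5% on chromosome IV, all above the upper bound for X. The interval of chromosome III, from 72.4% to 88.4%, still overlaps that of X. Windows of this kind cover 35.5% of X and 39.3% of chromosomes I to V, from 31.3% of chromosome III to 52.0% of chromosome IV. Of the remaining 20 X summits, 17 were intergenic, 2 in introns and 1 in a coding exon. Sub-threshold summits differed less: 37.9% of those on X (1765 of 4660) and 42.8% of those on chromosomes I to V were in promoters. Over all pooled summits, X was within the range of the autosomes. Promoters held 1794 of 4709 on X, 1803 of 4941 on chromosome III and 3048 of 5353 on chromosome IV.

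Read within each class, X was low for promoters and not low outside them. Among promoter summits, 1.62% of 1794 on X were thresholded (exact 95% interval 1.09 to 2.31), against 3.43% on chromosomes I to V; chromosome V, at 1.70%, was close to X. Among summits outside promoters, 0.686% of 2915 on X were thresholded (0.42 to 1.06), against 0.302% on chromosomes I to V (43 of 14260, 0.218 to 0.406). Single autosomes ranged from 0.0868% on chromosome IV to 0.605% on chromosome III outside promoters. The interval for X overlaps that of chromosome III, which runs from 0.365% to 0.944%. Per Mb, X had 1.13 thresholded summits outside promoters and chromosome III 1.38, while chromosomes I to V together had 0.521.

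**Figure D1:**
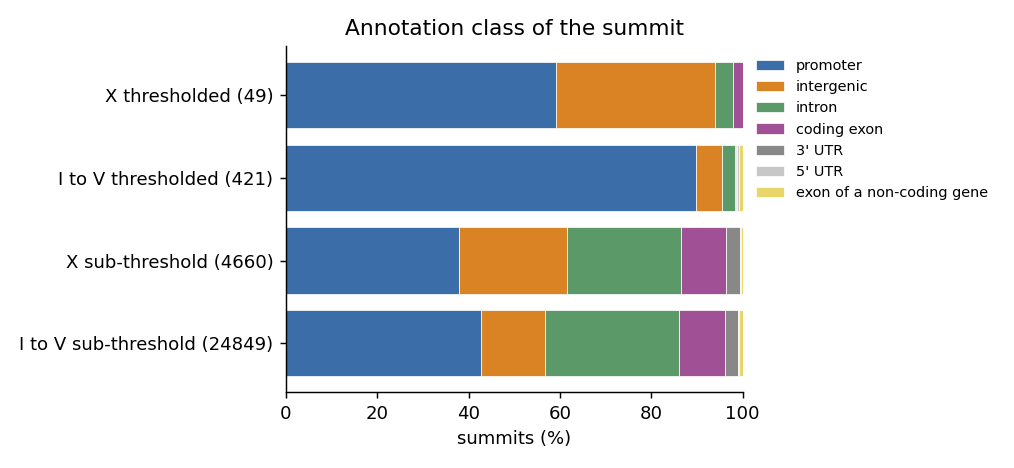
Share of summits (horizontal axis, percent) in each annotation class, for thresholded and sub-threshold peaks of X and of chromosomes I to V, with the number of peaks in parentheses. The promoter part is 59.2% for thresholded X summits and 89.8% for thresholded summits of chromosomes I to V, while the intergenic part is 34.7% and 5.70%.

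On X, thresholded summits outside promoters had the higher median signal. It was 121, against 77.9 for thresholded X summits in promoters. On chromosomes I to V the medians were 60.4 outside promoters and 74.4 in them. Single autosomes differed in this order. Chromosome V, with 62.3 outside and 59.0 in promoters, and chromosome IV, with 75.2 and 74.4, had the order of X by a small margin. They had just 5 and 2 summits outside promoters. Chromosomes I, II and III had the lower median outside. Signal also chose the thresholded peaks, so these medians describe the list. Over all 49 X peaks the median was 81.9, with quartiles at 60.1 and 148.

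The strongest X peak stood apart from all others on the chromosome. It spanned chrX:2242773-2243211, 372 bp upstream of rpl-11.2, which encodes a protein of the large ribosomal subunit, and was the 9th strongest peak of the thresholded list. Its signal was 1856 in the pooled list, 1073 in the list of replicate 1 and 791 in that of replicate 2, where it ranked 12th and 8th. The next X peak had a signal of 278, so the first was 6.68 times as strong and made up 25.97% of the signal summed over the 49. When signals of all thresholded peaks were summed, X contributed 7.30%, and 5.51% without this peak. The median of the other 48 X peaks was 80.3.

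Of X peaks 2 to 13 by signal, 8 of 12 lay outside promoters. Peak 2 (chrX:11094091-11094331) was intergenic, 3971 bp from the nearest coding 5′ end, that of W02H3.3, and had signals of 278 in the pooled list, 180 in replicate 1 and 108 in replicate 2. Peak 4 (chrX:6296488-6296666) was in an intron of mom-1, which encodes a protein needed for secretion of Wnt ligands, with signals of 259.8, 161 and 99.1. Peak 6 (chrX:9465782-9465931), intergenic and 2528 bp from the 5′ end of ZK899.6, had 204, 108 and 96.1. These 3 peaks ranked between 54th and 92nd in both replicate lists.

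Further intergenic and intronic peaks followed closely. Peak 7 (chrX:4209076-4209431), 1769 bp from the 5′ end of F20B6.9, had signals of 194 in the pooled list, 130.2 in replicate 1 and 65.6 in replicate 2. Peak 9 (chrX:13700708-13701063), 6021 bp from that of K02D3.1, had 181, 100.9 and 83.9. Peak 10 (chrX:2997028-2997166), in an intron of Y41G9A.17, had 181, 103 and 81.7. All 3 were among the strongest 109 peaks of either replicate list.

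Peak 11 (chrX:1627087-1627182), 1028 bp from the 5′ end of fbxb-58, had signals of 156 in the pooled list, 83.6 in replicate 1 and 77.1 in replicate 2. Peak 12 (chrX:16681939-16682294), 2577 bp from that of F22H10.2, had 153, 73.4 and 79.8. Peak 16 (chrX:11937358-11937713), 1390 bp from that of F55G7.5, had 129, 76.2 and 47.4. Peak 18 (chrX:5429363-5429718) was the single coding-exon summit, inside pks-1, which encodes a polyketide synthase, with 123, 69.4 and 53.1; the nearest coding 5′ end, that of C41A3.2, was 15191 bp away. Over all 20 peaks outside promoters the nearest coding 5′ end was a median of 2822 bp away, from 1028 to 15191 bp.

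**Figure D2:**
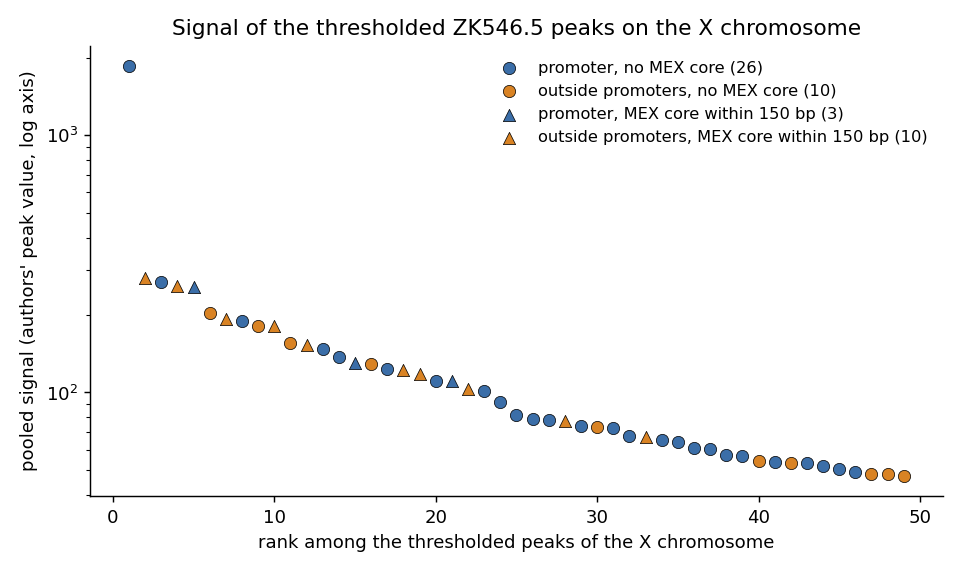
Pooled signal (vertical, log axis) of the 49 thresholded X peaks against their rank on X. Blue marks summits in promoters and orange those outside, and triangles mark an exact MEX core within 150 bp of the summit; the peak of rpl-11.2 stands alone at 1856, and 11 of the 13 triangles lie above a signal of 100.

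The exact MEX core lay at the summit of some thresholded X peaks and of none on the autosomes. Within 50 bp of the summit, on either strand, GCGCAGGG was present at 10 of 49 thresholded X summits (20.4%, exact 95% interval 10.2 to 34.3). It was present at 0 of 421 on chromosomes I to V, which allows up to 0.872%. Sub-threshold summits held it at 6 of 4660 on X (0.129%) and at 11 of 24849 on chromosomes I to V (0.0443%). Among all adjoining windows of the same length it was present in 0.0388% on X and in 0.0263% on chromosomes I to V. By class, 7 of the 20 X summits outside promoters held it (exact 95% interval 15.4% to 59.2%) and 3 of the 29 in promoters (10.3%, 2.19 to 27.4).

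The core matches kept close to the summits. Within 150 bp, 13 thresholded X peaks held 17 matches, and beyond that, up to 500 bp from these 49 summits, there was 1 more. Of the 13 peaks, 4 held 2 matches each. At sub-threshold X peaks, counted for each peak, there were 16 within 150 bp and 14 beyond it, up to 500 bp; 1 match lay within 150 bp of 2 overlapping peaks and counts for both. On chromosomes I to V, thresholded peaks had 1 match within 150 bp and 3 beyond it. Of the 13 X peaks, 10 lay outside promoters, 2 were in windows of coding genes (nspc-17 and ins-39) and 1 was in the window of the non-coding gene C18A11.13.

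**Figure D3:**
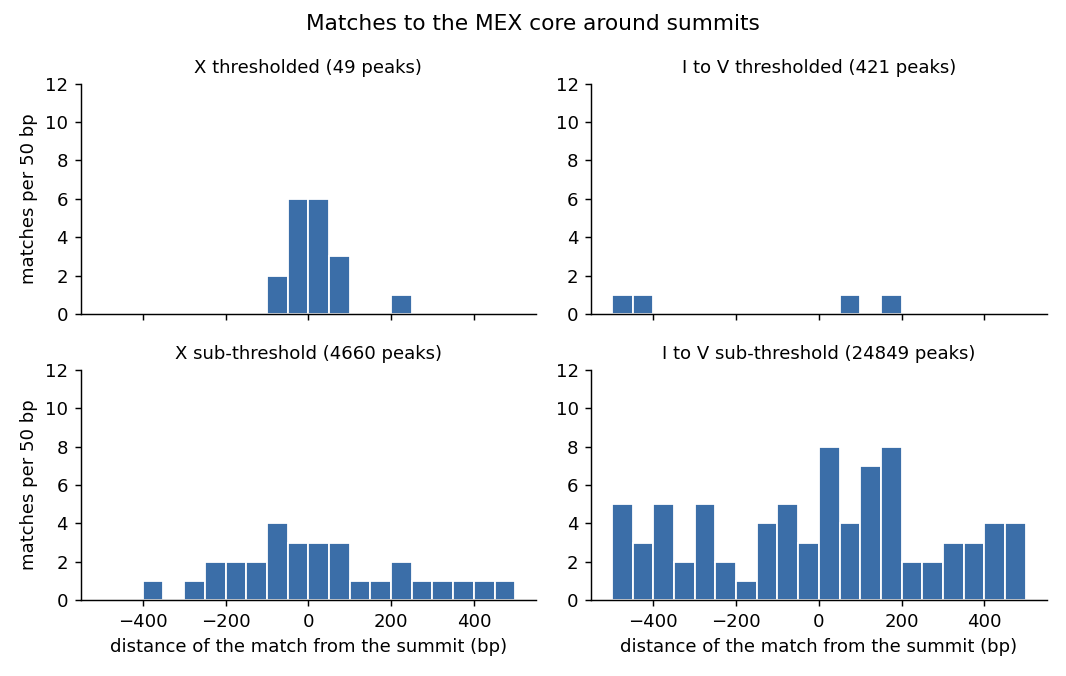
Number of matches to the MEX core per 50 bp (vertical) by distance of the match from the summit in bp (horizontal), counted for each peak, for the 4 sets of peaks on the same vertical scale. At thresholded X peaks 17 of 18 matches fall within 150 bp of the summit, while at sub-threshold X peaks 16 of 30 do.

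Seen from the motif, core matches on X were at peaks more often than those elsewhere. X held 81 matches (4.57 per Mb) and chromosomes I to V 233 (2.82 per Mb). Of the X matches, 17 lay within 150 bp of a thresholded summit (20.99%) and 32 within 150 bp of any pooled summit (39.5%). On chromosomes I to V these were 1 (0.429%) and 30 (12.9%). Matches directly preceded by TC were fewer: 19 on X and 6 on chromosomes I to V. Of those 19, 12 were within 150 bp of a thresholded X summit (63.2%) and 14 within 150 bp of any pooled one. Of the 62 X matches without TC, 5 were near a thresholded summit (8.06%). The TC was noted after these sequences had been seen.

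The length of the word searched changed the contrast on the autosomes more than on X. The hexamer GCAGGG was within 50 bp of 16 thresholded X summits (32.7%) and of 17 on chromosomes I to V (4.04%), against 1.06% of all windows of X. CGCAGGG was at 11 X summits and at 8 on chromosomes I to V (1.90%). The 9-letter TCGCGCAGG was at 10 X summits and at 0 of the 421. It adds the preceding TC but drops the last G of the core, so it is not a longer form of it. Its TC was picked with these sequences in view.

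Peaks with the core were in the upper part of the X list. The 13 had a median pooled signal of 130.01, from 67.1 to 278, and 11 of them exceeded 100. The other 36 had a median of 73.0, from 47.4 to 1856, and 12 exceeded 100. By rank on X, the core was within 150 bp of 6 of 12 peaks from rank 2 to 13, of 5 from 14 to 25, of 2 from 26 to 37 and of 0 from 38 to 49.

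Counting the second word as well took in all 8 peaks outside promoters from rank 2 to 13 on X. GCGAAGGG was within 50 bp of 8 thresholded X summits, the most of the 24 one-letter changes of the core; the next, C2G and G3A, were at 2 each. It was at 7 of the 20 outside promoters, 1 summit on chromosomes I to V, 3 sub-threshold X summits and 12 sub-threshold summits of chromosomes I to V. All windows of X held it at 0.073% and those of chromosomes I to V at 0.0551%. Within 150 bp, 9 X peaks held it, of which 6 held the exact core too. Either word was within 150 bp of 13 of the 20 X peaks outside promoters (65.0%, exact 95% interval 40.8 to 84.6), 3 of 29 in promoters, 4 of 421 on chromosomes I to V and 27 of 4660 sub-threshold X peaks (0.579%). All 8 of the peaks outside promoters from rank 2 to 13 were among these 13. None of the 43 thresholded peaks of chromosomes I to V outside promoters held either word, which allows up to 8.22%. The second word was picked from these X peaks, so its share there is a description of the choice. The same holds for the shares of either word, and for all 8 peaks being among the 13. The interval for either word does not cover this choice. Within 50 bp, at least 1 of the 24 one-letter changes was present at 14 of 49 thresholded X summits (28.6%). These were 11 of the 20 outside promoters and 3 of the 29 in promoters (10.3%). On chromosomes I to V such a change was at 44 of 421 thresholded summits (10.5%). The changes G6A and G7C were at 7 and 5 of those 421 and at 0 on X.

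Promoter peaks on X lay upstream of 25 coding genes, or 0.915% of the 2731 on the chromosome (exact 95% interval 0.593 to 1.35), against 3.14% of coding genes on chromosomes I to V. Chromosome V stood at 1.06% and chromosome I at 5.28%. For each of the 25 the summit was upstream, at a median position of -298 bp and 23 to 791 bp from the 5′ end. Just 2 of the 49 thresholded X peaks lay between divergent coding genes, against 159 of the 421 on chromosomes I to V (37.8%). Of the same 49, no more than 24 had their summit in the window of a coding gene.

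After rpl-11.2 the strongest was klp-13, a kinesin-like motor protein gene, with signals of 269 in the pooled list, 142 in replicate 1 and 126 in replicate 2. The gene nspc-17, of a family of nematode-specific peptides, had 256, 179 and 78.5, with the summit 713 bp upstream and an exact core 9.5 bp from it. The gene puf-9, which encodes an RNA-binding protein of the Pumilio family, had 190, 121 and 73.2. The vacuolar ATPase gene vha-15 had 137, 83.9 and 57.5. None of these 4 was among the strongest 50 peaks of either replicate list, and all 4 were among the strongest 125 of both.

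Lower in the list, zfp-3, a zinc finger protein gene, had signals of 124 in the pooled list, 82.1 in replicate 1 and 40.7 in replicate 2. The 14-3-3 gene ftt-2 had 2 peaks that overlap each other and are not separate evidence: 515 bp upstream with 111, 82.2 and 36.0, and 722 bp upstream with 81.9, 47.5 and 35.5. The insulin-like peptide gene ins-39 had 111, 73.4 and 41.3, and serp-1.1 had 102, 67.7 and 33.0.

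The other 16 coding genes had pooled signals from 49.1 to 78.7. They were glit-1 and dnj-14, which share a peak (78.7) and of which dnj-14 encodes a J-domain co-chaperone, ZK1193.2 (77.9), dpy-23, a subunit of the clathrin adaptor AP2 (73.8), and eef-1A.2, a translation elongation factor (72.6). Next came bet-2, a bromodomain protein gene (65.6), trap-2 and ile-2 at 1 peak (60.8), epn-1, an epsin of endocytosis (60.1), vha-12, another vacuolar ATPase subunit (57.3), and hsp-3, a chaperone of the endoplasmic reticulum (56.4). The last were nipi-3, a Tribbles-like pseudokinase gene (53.6), mdl-1, a Mad-like transcription factor gene (53.0), the protein disulfide isomerase genes pdi-6 (51.8) and pdi-2 (49.1), and sms-2, a sphingomyelin synthase gene (50.6). None of these held a core within 150 bp.

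Of 15 gene lists, 5 had a member on X with a thresholded summit. These were 1 of 2 cytosolic ribosomal protein genes (rpl-11.2), 1 of 3 translation factor genes (eef-1A.2), 2 of 5 chaperone genes (dnj-14 and hsp-3), 2 of 3 vacuolar ATPase genes (vha-15 and vha-12) and 1 of 34 neuropeptide and insulin genes (ins-39). On chromosomes I to V the same lists stood at 50 of 80, 9 of 37, 13 of 61, 2 of 17 and 0 of 106. No summit was found at the 43 ligand-gated and potassium channel genes of X, the 27 collagen, 23 nuclear hormone receptor, 21 homeodomain and 12 muscle contraction genes, the 5 vitellogenin genes and the 4 oxidative phosphorylation genes. The 2 genes of the dosage compensation complex on X and 8 elsewhere had none, nor had the 4 X genes and 7 others of the sex determination list, which includes xol-1, the switch gene of sex determination. No proteasome gene of the list lies on X. At 0.915% of all X coding genes, a list of these sizes would mostly have no member called, so the empty lists say little.

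Genes of other types shared several X peaks. Windows of 16 ncRNA genes, 3 tRNA genes, 1 snoRNA gene and 1 lincRNA gene held a thresholded X summit, and 5 of the 29 promoter peaks had non-coding windows alone. This was 0.635% of the 2520 ncRNA genes on X against 1.87% on chromosomes I to V, and 1 of 33 snoRNA genes (3.03%) against 11.5%. For tRNA genes it was 1.09% of 276 against 0.298%, and for lincRNA genes 1 of 38 against 2 of 156. The peak of rpl-11.2 was also 125 bp upstream of AH9.7 and of linc-78. The snoRNA gene T27A8.8 had signals of 148 in the pooled list, 100.5 in replicate 1 and 50.8 in replicate 2. The ncRNA gene C18A11.13 (chrX:8036276-8036631) had 130.01, 78.5 and 62.1 and 2 exact cores within 50 bp of the summit; its nearest coding 5′ end, 4859 bp away, was that of xol-1. The ncRNA gene C30E1.9 had 91.8, 64.5 and 29.9. The windows of W06B11.7 and W06B11.9 held the peak of puf-9, and those of F52D10.12 and F52D10.7 held both peaks of ftt-2, with F52D10.9 sharing the weaker one. Whether reads of near-identical tRNA genes were placed uniquely is not given in the sources used here, so the 3 tRNA genes are uncertain. The peak of the coding gene ZK1193.2 lies 184 bp upstream of 1 of these tRNA genes and shares this uncertainty.

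The share of X peaks among nuclear peaks changed with rank in the same way in the 3 lists. Of the 43 nuclear peaks among the strongest 50 of the pooled list, 1 was on X (2.33%, exact 95% interval 0.0589 to 12.3). From rank 51 to 150, 17 of 88 were (19.3%, 11.7 to 29.1), and from 151 to 491, 31 of 339 (9.14%, 6.30 to 12.7). From rank 492 to 1000 the share was 11.98%, and it lay between 13.2% and 16.4% in the bands below that. In the list of replicate 1 the first 3 bands had 2.33%, 20.9% and 10.1%, and in that of replicate 2 they had 2.27%, 18.4% and 9.14%. In each list the interval of the band from 51 to 150 takes in the shares of all bands below rank 1000, so it does not stand above those beyond counting error. The pooled list was made from both replicates and is not separate from their lists. In the pooled band from 51 to 150, 10 of the 17 X peaks lay outside promoters, against 4 of 71 peaks of chromosomes I to V.

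**Figure D4:**
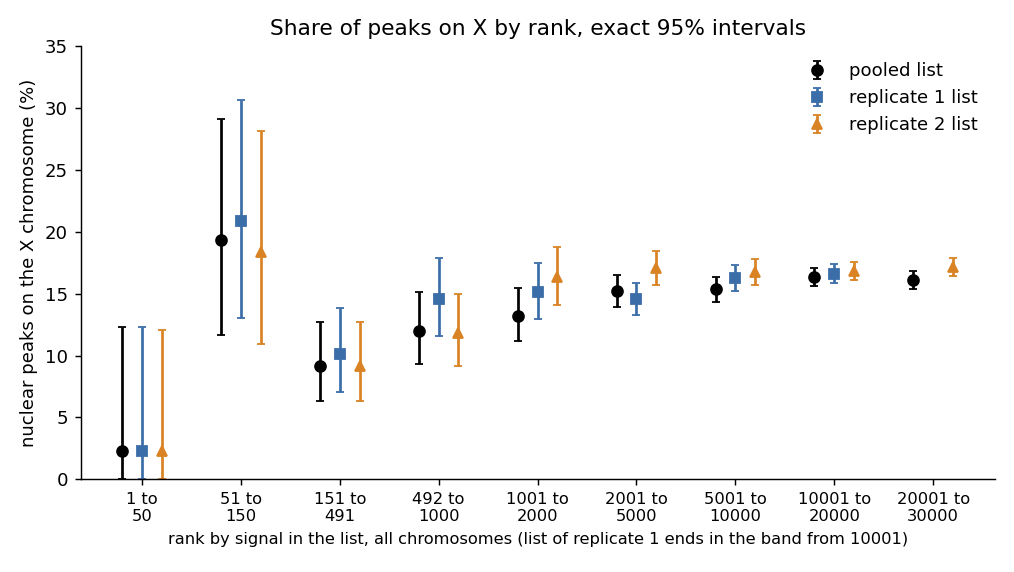
Share of nuclear peaks on X (vertical, percent) by band of rank in each list (horizontal), with exact 95% intervals that cover counting error. The band from rank 51 to 150 is highest in each list, at 19.3%, 20.9% and 18.4%, and the band from rank 1 to 50 is lowest, with 1 X peak in each list.

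Both replicates listed all 49 thresholded X peaks. The thresholded list was derived from the replicate lists, so this is partly its rule. Across the 49 peaks, signals in the replicate lists had a Spearman correlation of 0.837, given as a description since all points share the same libraries. Of the 49, 34 were among the strongest 491 of both replicate lists, as were 284 of the 421 thresholded peaks of chromosomes I to V, of which 420 were listed by both replicates. All 13 X peaks with the core were among the 34, as were 21 of the 36 without it. Of sub-threshold X peaks, 977 of 4660 were in both lists (20.97%, exact 95% interval 19.8 to 22.2), against 22.8% on chromosomes I to V.

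**Figure D5:**
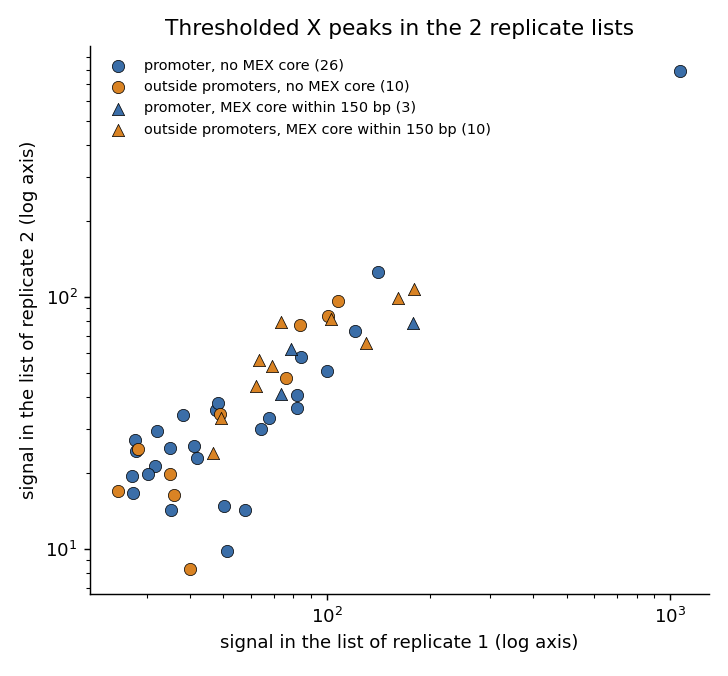
Signal of each of the 49 thresholded X peaks in the list of replicate 1 (horizontal, log axis) against that in the list of replicate 2 (vertical, log axis), with colours and symbols for promoter class and MEX core. Peaks with the core run along the main band, up to 180 and 108, and the lowest point in replicate 2 is the intergenic peak at 39.9 and 8.27.

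The 3 X peaks of the largest rank difference are named here and each ranked higher in replicate 1. Peak 47 (chrX:14841016-14841371), intergenic with egrh-1 as its nearest coding gene, had signals of 48.2 in the pooled list, 39.9 in replicate 1 (rank 300) and 8.27 in replicate 2 (rank 14031). The peak of epn-1 had 60.1, 51.1 (rank 201) and 9.78 (rank 8355). The peak of eef-1A.2 had 72.6, 58.0 (rank 178) and 14.2 (rank 1820).

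Over all chromosomes the weakest thresholded peak had a pooled signal of 45.9282 and the strongest sub-threshold peak 45.909. The thresholded list thus amounts to a cut in pooled signal, not to a separate mark of agreement for each peak. On either side of the cut, X peaks were close in signal. The 3 weakest thresholded X peaks had 48.2, 48.2 and 47.4 and were all intergenic. The 3 strongest sub-threshold ones had 45.8 at epg-7, an autophagy gene, 45.8 at an intergenic site 6087 bp from mboa-1, and 45.3 at F13C5.2. None of these 3 had a core within 150 bp.

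The 16 sub-threshold X peaks with a core within 150 bp had pooled signals from 13.04 to 28.1, below a cut that no sub-threshold peak could pass. The strongest, at chrX:4208468-4208823, lay 608 bp from the summit of X peak 7. The next, at chrX:2997104-2997459 with a signal of 22.3, overlapped X peak 10, but its match, 19.5 bp from its summit, is not the one near the summit of peak 10; it lies 219.5 bp from that summit and is also preceded by TC. In all, 55 pooled X peaks overlapped a thresholded one, which includes the 49 themselves.

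Along X the thresholded peaks were uneven and the pooled peaks less so. Counted in 5 equal parts from the left end, thresholded peaks numbered 15, 12, 4, 9 and 9, and pooled peaks 1022, 1011, 786, 847 and 1043. Summits outside promoters occurred in all of the 5 parts, from 1 to 7 in each. The median gap between neighbouring thresholded summits was 224 kb and the longest 1429 kb.

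Promoter summits on X held several of the short words that recur at promoter summits elsewhere. Over chromosomes I to V, 5 hexamers most set thresholded promoter summits apart from sub-threshold ones, each present in 20.1% to 23.0% of the 378. The first, ACGCAG, was present at 6 of the 29 X promoter summits (20.7%). The second, CGAGAC, was present at 4 (13.8%). The third, GCGCAC, was present at 5 (17.2%), the fourth, GAGACC, at 3 (10.3%) and the fifth, GCGAGA, at 8 (27.6%). At sub-threshold X promoter summits the shares of these words ran from 1.93% to 3.34%. Of the 8-letter words chosen in the same way, the leading one, GCGAGACC, was present at 12.4% of the 378 and at 1 of the 29 on X (3.45%). The next, CGAGACCC, was present at 11.1% and again at 1 of the 29, while AGACGCAG, the word in the 4th place, was present at 9.26% and at 4 of the 29 (13.8%).

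Among the other motifs sought, GAGAGA was present at 13 of the 49 thresholded X summits (26.5%) and at 21.1% of those on chromosomes I to V. By class the order differed: it was at 4 of 20 X summits outside promoters against 22 of 43 on chromosomes I to V (51.2%), and at 9 of 29 X promoter summits (31.0%) against 17.7%. It was present at 5.21% of sub-threshold X summits and in 4.91% of all windows of X. The T run TTTTTT went the other way, with 5 of the 49 (10.2%), 51.1% of sub-threshold X summits and 40.6% of all windows of X. The word CCGCCC, bound by Sp1 and KLF family factors, was present at 5 of the 49, against 1.20% of sub-threshold X summits and 7.13% of thresholded summits of chromosomes I to V. The TATA box TATAAA was present at 3 (6.12%), against 14.7% and 3.33%. Present at 1 summit each (2.04%) were the E-box CACGTG, against 1.12% and 3.80%, the GATA factor word TGATAA, against 9.33% and 3.33%, and the heat shock element pair GAANNTTC, against 5.39% and 3.80%. The splice acceptor word TTTCAG was present at 0, which allows up to 7.25%, against 18.6% and 6.89%. The GC-rich word CTCCGCC, at 0.536% and 3.56%, and the AP-1 site TGACTCA, at 1.20% and 0.475%, were at 0 as well. All were sought within 50 bp of the summit on either strand, and a match is no more than the presence of the letters. The median GC content of these windows was 50.5% at thresholded X summits, 48.5% at those of chromosomes I to V and 32.7% at sub-threshold X summits.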

How the data were processed

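ChIP-seq peak lists of 2 biological replicates were analysed. Peaks were called on each replicate and on both together against a control library, and IDR then gave the thresholded list, per the records that the submitters deposited. The sources used here name no aligner, caller, IDR threshold or read depth, so no precision from depth can be stated. The authors deposited a signal value for each peak, which ranks peaks inside 1 list and has no common scale across lists. The list of replicate 1 held 19076 peaks and that of replicate 2 30000.

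Coordinates are ce11, the same sequence as WBcel235, with Ensembl annotation release 115. A pooled peak counts as thresholded where the thresholded list has the same coordinates; overlap of at least 1 bp and of at least 50% of both widths were alternatives. Replicate lists were joined by an overlap of at least 1 bp. A summit in a promoter window was classed as promoter first; others took the class of their base, with coding exons before UTRs, non-coding exons and introns, and the rest intergenic. Trans-splicing of many worm messages means that transcription may begin upstream of an annotated 5′ end. Intervals of shares are exact (Clopper-Pearson, 95%) and cover counting error alone. Words and 11 motifs were sought on both strands in windows of 50 bp on each side of the summit, with no test. Sequences were read from the RefSeq assembly of WBcel235.

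The members, lists and motifs were chosen with earlier results of these data known. Named are coding genes at the 25 strongest thresholded X peaks, up to 10 non-coding genes and 10 peaks outside promoters by signal, the 3 peaks on each side of the threshold, the 3 with the largest rank difference between replicates, and up to 4 X members of each gene list. The other coding genes with a thresholded X summit, the word GCGAAGGG and the preceding TC were picked with their values in view. The alternatives were the ce10 lists, the stronger part of the thresholded list, as many of each replicate's own strongest peaks, other windows and other overlaps. The scripts were tested on simulated data. Tools were Python 3.11.15, numpy 2.4.6, pandas 2.3.3, scipy 1.17.1 and matplotlib 3.10.9.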

Additional observations from a re-analysis of the deposited data

How the results depend on the processing

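Of 40 alternatives over 10 results, 35 were counted as keeping the reported value and 5 as moving it. For shares, keeping it means lying within the exact 95% interval of the reported one. Density per Mb and median signal are given without such an interval. The share of X peaks that were thresholded ranged from 0.957% without replicate 1 to 1.78% without replicate 2. The latter uses the list of replicate 1, whose 19076 peaks are fewer than those of the pooled list. In the same 2 lists the shares on chromosomes I to V were 1.69% and 2.60%, so X was the lower in both. With the stronger part of the thresholded list the X share was 0.595% and the density 1.58 per Mb, as fewer peaks were kept by construction. That part held 28 X peaks and 198 of chromosomes I to V. With an overlap of at least 50% of both widths, 91.8% of thresholded and 14.4% of sub-threshold X peaks were in both replicate lists. The share of X summits in promoters ran from 51.0% with windows of 500 bp upstream to 71.4% with 2000 bp, and was 48.98% with windows of coding genes alone; summits outside promoters then made up 48.98%, 28.6% and 51.0% on X against 14.96%, 5.46% and 16.6% on chromosomes I to V. The MEX core was at 16.7% to 20.8% of X summits when either replicate was left out, and at 0 summits of chromosomes I to V each time. The alternatives for the MEX core and the overlap of 1 bp were added after seeing the data. No paired analysis was possible because the labels give a single group. The sources used here give no read depth, so what it limits cannot be stated, and 49 peaks leave wide intervals.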
